A study of Macaca mulatta with 30 samples.

Results

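MFSD2A encodes a membrane transporter that carries lysophosphatidylcholine, a phospholipid with a single fatty acid chain, into cells. It was followed here as 1 gene, the row ENSMMUG00000011264 of each count table, among 17644 genes tested in fetal lung and 17390 in fetal hippocampus. The gene was chosen by its level in lung a few hours after corticosteroid treatment, so those early values are given as a description, without a test. Pregnant rhesus macaques carried the fetuses and received a single intramuscular injection, and whole-tissue RNA of the fetus was sequenced. The clinical drug, Celestone, is an equal mixture of betamethasone phosphate and betamethasone acetate, given at 0.25 mg/kg. Beta-Ac is betamethasone acetate alone, a slow release form, given at 0.125 mg/kg.

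Lung came from 5 groups of 3 wild type fetuses at gestational days 124 to 130 by the labels: saline controls, fetuses taken 4 h or 5 days after the clinical drug, and fetuses taken 6 h or 5 days after Beta-Ac. Hippocampus came from 3 groups of 5 fetuses at 130 to 136 days: controls, the clinical drug and Beta-Ac, both delivered 5 days after treatment. The 9 fetuses that gave both tissues are among those at 131 to 136 days in the hippocampus labels, so the ages of the lung and hippocampus labels conflict and no difference in age between the tissues is read from them. Hippocampus groups follow the library names (CTL, CEL and BAC). The treatment and dose fields of these libraries give the drugs the other way round, and the names match the lung labels of the same animals. Read totals on genes ranged from 14.1 to 45 M in lung and from 18.3 to 29.3 M in hippocampus. 1 control hippocampus (replicate 5) carried 898 CPM of choroid plexus genes, against 1.42 to 17.9 in the other 14 libraries. Levels are counts per 1 M reads (CPM) after TMM scaling, and a gene was called changed at a fold of at least 1.5, p under 0.05 and adjusted p under 0.1.

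Lysophosphatidylcholine is the main form in which docosahexaenoic acid, the omega-3 fatty acid enriched in brain membranes, crosses the blood-brain barrier, and MFSD2A in the endothelial cells of that barrier is the transporter known for it. In the endothelium it is also known to keep vesicle traffic through the cell low. In lung the gene is known from alveolar type 2 cells, which make surfactant, a material built largely of phosphatidylcholine. In liver it is known as a gene induced by fasting.

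In untreated lung MFSD2A was close to the limit of what these libraries measured. The controls stood at 1.36, 1.54 and 2.997 CPM, which rested on 20, 26 and 59 reads. All 3 were low, with 1 control above the other two. At 4 h after the clinical drug the level was 32.0, 39.0 and 94.2 CPM. Every one of these libraries lay above every control, and the highest was also the deepest library of the series, with 45 M reads and 4084 reads on MFSD2A. At 6 h after Beta-Ac the level was 10.4, 12.3 and 25.1 CPM, again above all controls and below all clinical drug libraries.

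**Figure D1:**
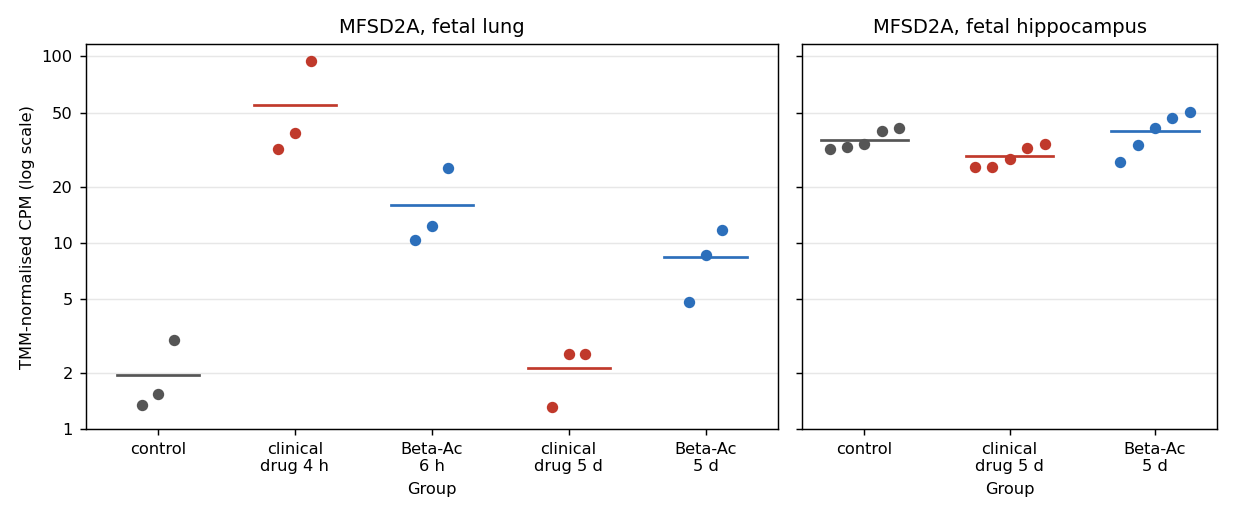
MFSD2A in each library, as TMM-normalised CPM on a log axis, for the 5 lung groups (left, 3 fetuses each) and the 3 hippocampus groups (right, 5 fetuses each); points are fetuses and horizontal lines are group means. Lung means run from 1.97 CPM in controls to 55.1 CPM at 4 h after the clinical drug, and only Beta-Ac stays above controls at 5 days, while hippocampus means lie between 29.1 and 39.7 CPM.

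As group means, MFSD2A rose from 1.97 ± 0.898 CPM (SD, n = 3) in controls to 55.1 ± 34.1 CPM (SD, n = 3) after the clinical drug and to 15.9 ± 7.99 CPM (SD, n = 3) after Beta-Ac. The fitted log2 fold change was 4.80 (SE 0.55) for the clinical drug and 3.01 (SE 0.53) for Beta-Ac, or 27.8-fold and 8.06-fold. By size, MFSD2A ranked 15th from the highest of all tested genes for the clinical drug and 58th for Beta-Ac. Between the drugs the early difference was 1.79 (SE 0.46) on the log2 scale, 3.45-fold, with no overlap of the 3 libraries on either side. The times differ (4 h and 6 h), as do the doses, so the drugs are set side by side and not matched. Without the 45 M library the clinical drug value was 4.15 and the difference between drugs 1.15, and without Beta-Ac replicate 3, the highest, the Beta-Ac value was 2.51.

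Over all genes, 3.46% were called higher and 3.94% lower at 4 h after the clinical drug, and 0.368% higher and 0.0737% lower at 6 h after Beta-Ac. Of the calls at 4 h, 46.8% were higher, and 29.7% with library size as the only scaling, which moved the median of all genes by -0.116. MFSD2A passed the same thresholds in both comparisons, which is what chose it.

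At 5 days the order of the drugs in lung was the other way round. After the clinical drug MFSD2A stood at 1.32, 2.54 and 2.55 CPM (39 to 66 reads), overlapping the controls. After Beta-Ac it stood at 4.80, 8.64 and 11.7 CPM (129 to 297 reads). All 3 Beta-Ac libraries lay above all 3 controls and above all 3 clinical drug libraries.

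The clinical drug at 5 days differed from controls by a log2 fold change of 0.08 (SE 0.55), with a 95% interval of -1.11 to 1.27 (edgeR quasi-likelihood test, Storey adjusted p = 0.938). That interval reaches past 1 log2 unit on either side, so with 3 fetuses per group a change of that size could be missed. Beta-Ac at 5 days was higher than controls by 2.05 (SE 0.52), 4.15-fold, with a 95% interval of 0.93 to 3.18 (edgeR quasi-likelihood test, Storey adjusted p = 0.644). The clinical drug was lower than Beta-Ac by a log2 difference of -1.97 (SE 0.50), 3.93-fold, with an interval of -3.06 to -0.89 (edgeR quasi-likelihood test, Storey adjusted p = 0.999). Neither of these was called, since the adjusted p missed the threshold.

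Very little passed in lung at 5 days over the whole table. The edgeR fit called 0% of genes for the clinical drug, 0.00567% (1 gene) for Beta-Ac and 0% between the drugs, while 775, 1133 and 556 genes had an unadjusted p under 0.05. DESeq2 called 16, 38 and 7 genes in the same comparisons and called MFSD2A for Beta-Ac against controls (adjusted p = 0.0217) and between the drugs (adjusted p = 0.055). With 3 against 3, the exact two-sided permutation test on log2 CPM cannot go below p = 0.1, and both comparisons reached that value. The 2 comparisons with controls share the same control fetuses, and the gene was taken up with its pattern known, so the 5-day result is not independent evidence. Over all genes tested, every Beta-Ac 5-day library lay above every control in 6.33%, above every clinical drug 5-day library in 5.33%, and above both groups in 1.26%.

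**Figure D2:**
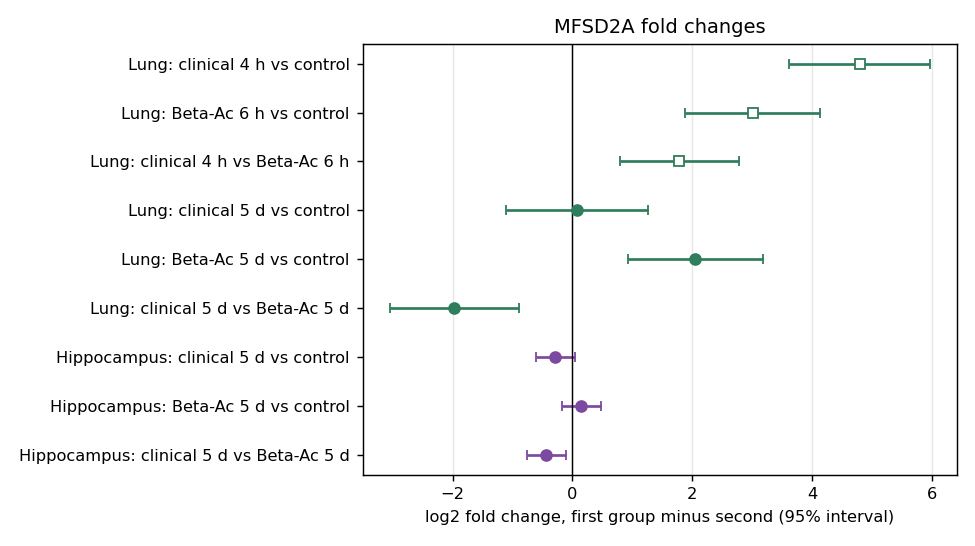
Log2 fold changes of MFSD2A in 9 comparisons, first group minus second, with 95% intervals from the fit; green points are lung and purple points hippocampus, and open squares mark the early lung comparisons that chose the gene and have no test. The 3 early lung values lie above 1.7, Beta-Ac at 5 days is at 2.05 and the difference between drugs at 5 days is -1.97, while hippocampus values stay between -0.44 and 0.15.

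From 4 h to 5 days after the clinical drug the level fell by a factor of 26.3, a log2 difference of 4.72 (SE 0.54). By size this was the 6th largest early-over-late difference of all tested genes. From 6 h to 5 days after Beta-Ac the difference was 0.96 (SE 0.46), 1.94-fold, and the ranges of the 2 groups overlapped. In the order of group means, lung ran from the clinical drug at 4 h (55.1 CPM) through Beta-Ac at 6 h (15.9) and Beta-Ac at 5 days (8.38) to the clinical drug at 5 days (2.14) and controls (1.97). Beta-Ac at 6 h and at 5 days overlapped, as did the clinical drug at 5 days and controls. The other neighbours in that order did not overlap.

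Of 10 known glucocorticoid targets 6 were tested in lung, of which 5 were called higher at 4 h after the clinical drug and 4 at 6 h after Beta-Ac. Over all tested genes 3.46% and 0.368% were called higher. At 5 days 0 of the 6 were called for either drug or between the drugs by edgeR, where 0%, 0.00567% and 0% of all genes were called. Their median log2 difference between the drugs was 0.08, against -0.01 over all genes. FKBP5, a co-chaperone of the glucocorticoid receptor, stood at 5.61 ± 0.339 CPM in controls, 172 ± 49.7 at 4 h and 51.2 ± 45.7 at 6 h (SD, n = 3 each). At 5 days it was at 6.21 ± 0.444 CPM after the clinical drug and 6.21 ± 0.352 after Beta-Ac, with a log2 difference between the drugs of 0.01 (SE 0.47; edgeR, Storey adjusted p = 0.999). ZBTB16, a transcription factor known as a glucocorticoid target, went from 9.45 ± 4.58 CPM in controls to 202 ± 71.5 and 122 ± 49.8 early, and stood at 13.3 ± 4.63 and 12.2 ± 1.74 at 5 days (SD, n = 3 each). PER1, a component of the circadian clock that the receptor induces, went from 153 ± 51.2 CPM to 750 ± 74.5 and 522 ± 77.8 early, and stood at 179 ± 74 and 175 ± 9.65 at 5 days (SD, n = 3 each). Whether MFSD2A differed from them in its drug difference was not tested.

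**Figure D3:**
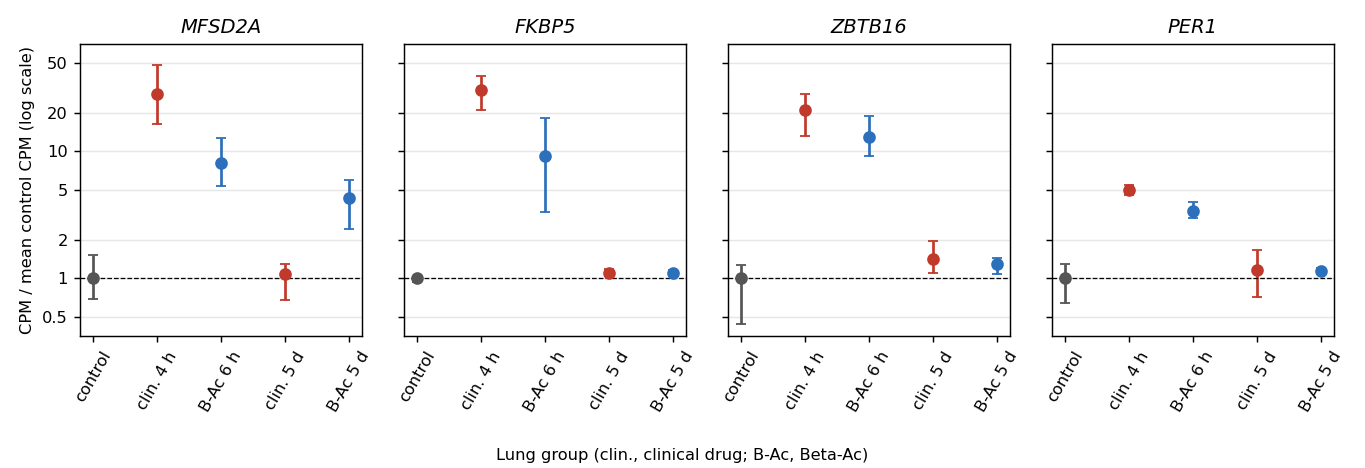
MFSD2A and 3 glucocorticoid target genes in the 5 lung groups, as CPM divided by the gene's own mean control CPM on a log axis; points are means of 3 fetuses, bars run from the lowest to the highest fetus and the dashed line is the control mean. All 4 genes stand above controls early, and at 5 days MFSD2A after Beta-Ac is the one group whose lowest fetus (4.80 CPM) is above 2 times its control mean (1.97 CPM).

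MFSD2A was also set beside the genes that both drugs induced early. In lung 61 genes were called higher at 4 h after the clinical drug and at 6 h after Beta-Ac, MFSD2A among them. At 5 days their log2 difference, clinical drug minus Beta-Ac, had a median of -0.02 and ran from -1.97 to 1.32. MFSD2A held the lowest value. SLC46A2, a transporter of the SLC46 family, came next at -1.32, followed at -0.66 by a gene without a symbol. In 3 of the 61 genes, 4.92%, MFSD2A among them, every Beta-Ac library lay above every control and every clinical drug library. Over all genes the share was the 1.26% given above. The 61 genes were chosen as higher than the same controls, so these shares are not alike and no enrichment is read from them. This gene set was formed after the values of MFSD2A were seen, and it is given as a description.

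**Figure D4:**
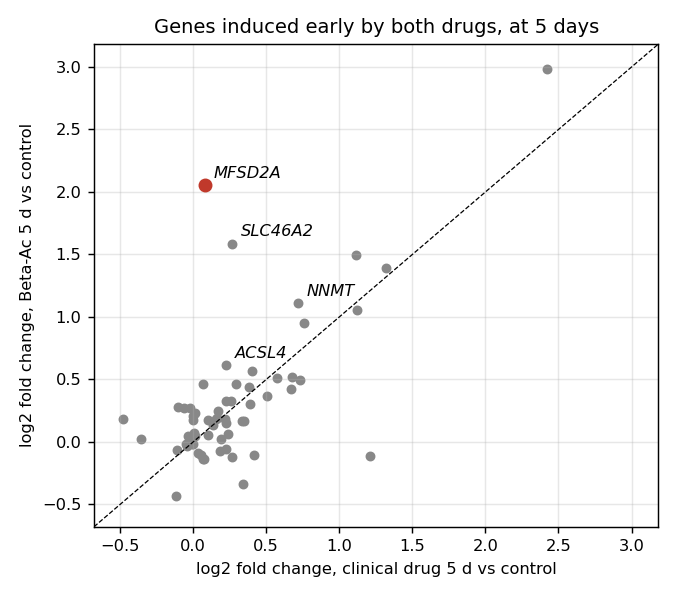
The 61 genes called higher for both drugs at the early times in lung, plotted by their log2 fold change against controls at 5 days after the clinical drug (horizontal) and after Beta-Ac (vertical), with the dashed line of equal change. MFSD2A (red) is at 0.08 and 2.05, the point farthest above the line, and SLC46A2 is at 0.27 and 1.59.

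Whole lung holds many cell types, so fewer cells of a type and less RNA per cell cannot be told apart. Of 10 alveolar type 2 genes, 9 were measured. Their summed level was 8595 to 13430 CPM in controls, 10860 to 14030 at 5 days after the clinical drug and 13790 to 16460 at 5 days after Beta-Ac. The sum was thus higher in every Beta-Ac 5-day library than in every control. MFSD2A divided by that sum was -12.6 to -12.1 in controls on the log2 scale, -13.0 to -12.3 after the clinical drug and -11.7 to -10.3 after Beta-Ac, so the Beta-Ac libraries stayed apart from both groups. Of 18 barrier endothelium genes, 13 were measured, and their sum was 3648 to 4103 CPM in controls, 3626 to 3931 after the clinical drug and 3217 to 3300 after Beta-Ac. Relative to these genes MFSD2A was again higher in each Beta-Ac library (-9.41 to -8.10) than in any control (-11.6 to -10.3) or clinical drug library (-11.4 to -10.5). At 4 h after the clinical drug 3.46% of all genes were called higher and 3.94% lower. Of the 9 type 2 genes 4 were called higher and 0 lower, with 7 of 9 positive. SFTPC, the surfactant protein specific to type 2 cells, and ABCA3, which loads phospholipid into the surfactant store, were among them, by 1.13 (SE 0.28) and 0.93 (SE 0.19) on the log2 scale (edgeR, Storey adjusted p = 0.0178 and 0.00759). In the same comparison 1 of 13 endothelial genes was called lower (KDR, -1.16, adjusted p = 0.000132), with 4 of 13 positive and a median of -0.30. Of 4 pericyte genes 1 was called lower (RGS5, -1.11, adjusted p = 0.0169), with 0 positive and a median of -0.15. The median over all genes was 0.02. Of 5 type 1 cell genes 1 was called higher (HOPX, 1.29, adjusted p = 0.000143) and 1 lower (RTKN2, -0.65, adjusted p = 0.0947), with 3 positive. At 5 days 0 of the type 2 genes and 0 of the endothelial genes were called by edgeR, where 0% to 0.00567% of all genes were called. The part of these cell types in the MFSD2A result was not tested beyond these ratios.

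Of the 4 other lysolipid transporters tested in lung, 0 were called against controls by edgeR. Over all genes 7.4% were called at 4 h after the clinical drug and 0.442% at 6 h after Beta-Ac. At 5 days the shares were 0% and 0.00567%, so no difference from other genes is read from 0 of 4. SPNS1, a lysosomal exporter of lysophospholipids, stayed between 67.1 and 81.4 CPM in all 15 lung libraries. SPNS2, which exports sphingosine 1-phosphate, was at 61.7 ± 3.82 CPM in controls and 47.6 ± 1.47 at 4 h after the clinical drug (SD, n = 3 each), a log2 fold change of -0.37 that was under the fold threshold. MFSD2B, the sphingosine 1-phosphate exporter of red blood cells and the nearest named relative of MFSD2A, was at 0.799 ± 0.482 CPM in controls (SD, n = 3). It was called lower at 4 h after the clinical drug than at 6 h after Beta-Ac by a log2 difference of -2.16 (SE 0.71; edgeR, Storey adjusted p = 0.0622), a comparison in which 6.74% of all genes were called, 38.9% of them higher (25.5% with library size as the only scaling). The value without Beta-Ac replicate 3, which held 217 CPM of red blood cell genes against 18.7 to 89.9 in the other lung libraries, was -0.76 and was not called. The call was also lost without clinical drug replicates 2 or 3 (adjusted p = 0.114 and 0.144), with only the 2 groups fitted (0.199), after Benjamini-Hochberg adjustment (0.1) and with no filter on low counts (0.113), and the part of red blood cells in it was not tested.

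Enzymes and carriers that handle the same lipids were taken from 64 genes in 8 lists, MFSD2A left out, of which 55 were tested in lung. At 4 h after the clinical drug 6 were called higher and 2 lower, and their median log2 fold change was -0.02, against 0.02 over all tested genes. Over all tested genes 3.46% were called higher and 3.94% lower. At 6 h after Beta-Ac 1 of the 55 was called higher and 0 lower, against 0.368% and 0.0737% over all tested genes. Whether the lists differed from these shares was not tested. The acyl-CoA synthetases, which activate fatty acids for use in phospholipids, held 3 of the genes that rose, of 6 tested. ACSL4, which prefers arachidonic acid, went from 104 ± 1.94 CPM in controls to 338 ± 57.6 after the clinical drug and 229 ± 53 after Beta-Ac (SD, n = 3 each), log2 fold changes of 1.71 (SE 0.22) and 1.16 (SE 0.21) (edgeR, Storey adjusted p = 0.000235 and 0.0461). Its Beta-Ac call was lost without any 1 of the controls, with adjusted p between 0.104 and 0.205, and without Beta-Ac replicate 3 (0.269). ACSL3 rose by 1.32 (SE 0.13) after the clinical drug (adjusted p = 4.85e-05) and differed by 0.26 (SE 0.13) after Beta-Ac, which was not called.

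SLC27A6, a fatty acid carrier of the FATP family, rose by 1.85 (SE 0.51) after the clinical drug (edgeR, Storey adjusted p = 0.0313), from 10.9 ± 2.62 to 38.7 ± 31.3 CPM (SD, n = 3 each). The call rested on the 45 M library, and the value was 0.93 with adjusted p = 0.158 without it, while without control replicate 3 the adjusted p was 0.119. LIPG, the endothelial lipase that releases lysophosphatidylcholine from lipoproteins, and PNPLA7, a lysophospholipase, fell by 0.79 and 0.60 on the log2 scale (adjusted p = 0.0668 and 0.04). Both calls were lost when single libraries were left out, LIPG without clinical drug replicates 1 or 2 or control replicate 2, and PNPLA7 without clinical drug replicate 3 or control replicates 1 or 2, with adjusted p between 0.101 and 0.244. At 5 days 0 of the 55 genes were called for either drug or between the drugs, by edgeR or by DESeq2. Over all 17644 genes tested edgeR called 0, 1 and 0 in these comparisons and DESeq2 16, 38 and 7. No difference of the lipid genes from other genes is read from this. LPCAT1, the type 2 cell enzyme that turns lysophosphatidylcholine into surfactant phosphatidylcholine, stood at 283 ± 14.4 CPM in controls, 415 ± 36.2 at 5 days after the clinical drug and 435 ± 84.8 after Beta-Ac (SD, n = 3 each). Its log2 fold changes were 0.55 (SE 0.20; edgeR, Storey adjusted p = 0.931) and 0.61 (SE 0.20; adjusted p = 0.665). NR3C1, the glucocorticoid receptor, was not called in any lung or hippocampus comparison. At 4 h after the clinical drug its log2 fold change was -0.41 (SE 0.15; edgeR, Storey adjusted p = 0.094), which missed only the fold threshold.

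In hippocampus MFSD2A was well measured, with 500 to 1388 reads per library. The controls stood at 33.7, 31.7, 41.4, 39.6 and 32.6 CPM. The clinical drug libraries stood at 28.3, 25.4, 34.1, 25.6 and 32.3 CPM. The Beta-Ac libraries stood at 50.1, 27.2, 33.4, 41.3 and 46.7 CPM. The 3 groups overlapped, and Beta-Ac covered the widest range.

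The mean was 35.8 ± 4.40 CPM in controls, 29.1 ± 3.90 with the clinical drug and 39.7 ± 9.41 with Beta-Ac (SD, n = 5 each). The clinical drug was lower than controls by a log2 difference of -0.29 (SE 0.15), with a 95% interval of -0.62 to 0.04 (edgeR quasi-likelihood test, Benjamini-Hochberg adjusted p = 0.213). Beta-Ac differed from controls by 0.15 (SE 0.15), with an interval of -0.18 to 0.47 (edgeR, adjusted p = 0.735). Between the drugs the difference was -0.44 (SE 0.15), 1.36-fold, with an interval of -0.76 to -0.11 (edgeR, adjusted p = 0.256). None was called, and the smallest exact permutation p on log2 CPM was 0.0635, where 5 against 5 can reach 0.00794. In the order of means (Beta-Ac, controls, clinical drug) the ranges of neighbours overlapped. If the treatment field and not the library name is right, the drugs trade places and each of these drug differences takes the other sign.

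Over all hippocampus genes tested, 2.5% were called higher and 5.35% lower after the clinical drug. Of these calls 31.8% were higher, and 14.6% with library size as the only scaling. The edgeR fit called 0% for Beta-Ac and 0% between the drugs, with 2133 and 2346 genes at an unadjusted p under 0.05, and DESeq2 called 138 and 180. Libraries were sequenced in 4 runs, of which 2 held all groups, with 1 control each. The other runs held controls only. Within the 2 runs with all groups the clinical drug libraries averaged 29.3 and 28.9 CPM and the Beta-Ac libraries 36.9 and 44 CPM. The controls of these runs stood at 41.4 and 32.6 CPM. With run in the fit the difference between the drugs was -0.44 (edgeR, adjusted p = 0.188). The difference from controls was then -0.34 for the clinical drug (edgeR, adjusted p = 0.332) and 0.10 for Beta-Ac (edgeR, adjusted p = 0.872). These values against controls rest on 1 control per full run.

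Barrier endothelium was checked with 14 measured genes of 18. CLDN5, its usual tight junction marker, could not be matched by symbol. The summed level was 450 to 822 CPM in controls, 571 to 694 after the clinical drug and 505 to 682 after Beta-Ac. After the clinical drug 2.5% of all genes were called higher and 5.35% lower. Of the 14 endothelial genes 0 were called higher and 1 lower, EMCN, an endothelial sialomucin, at -0.78 (SE 0.30, edgeR adjusted p = 0.0937). The EMCN call was lost in 8 of 10 fits that left out a fetus, with values of -0.92 to -0.52 over the 10. SLC2A1, the glucose transporter of the barrier, and PECAM1, an endothelial adhesion molecule, were not called, with log2 fold changes after the clinical drug of -0.02 (SE 0.16) and -0.06 (SE 0.18). MFSD2A relative to the summed endothelial genes was -4.07 ± 0.412 in controls on the log2 scale, -4.46 ± 0.074 with the clinical drug and -3.92 ± 0.307 with Beta-Ac (SD, n = 5 each). The difference from controls was -0.39 for the clinical drug (exact two-sided permutation test, p = 0.0556) and 0.15 for Beta-Ac (exact permutation test, p = 0.54). Without control replicate 5, the library with choroid plexus genes, these values were -0.54 (exact permutation p = 0.00794) and -0.001 (exact permutation p = 0.992). For the clinical drug this was the 1 fit, of 10 that left out a fetus, with p under 0.05 (highest exact permutation p = 0.127). The permutation test did not take sequencing run into account. Of the controls left in that fit, only 1 shared a run with treated fetuses, so drug and run cannot be told apart there.

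Of the 64 lipid genes 57 were tested in hippocampus, and after the clinical drug 1 was called higher and 5 lower, with a median log2 fold change of -0.10 against -0.02 over all tested genes. Over all tested genes 2.5% were called higher and 5.35% lower, and whether the lists differed from that share was not tested. ELOVL2, which elongates the precursors of docosahexaenoic acid, rose from 143 ± 18.5 to 219 ± 31.8 CPM (SD, n = 5 each), a log2 fold change of 0.62 (SE 0.13; edgeR, Benjamini-Hochberg adjusted p = 0.0155). It was not called without control replicate 5 (0.58) or clinical drug replicate 3 (0.53), where the fold was under 1.5. CD36, a scavenger receptor that takes up fatty acids, fell by 1.21 (adjusted p = 0.0237), PNPLA6, a lysophospholipase of neurons, by 0.68 (adjusted p = 0.0138) and AGPAT4, an acyltransferase of lysophosphatidic acid, by 0.68 (adjusted p = 0.0138). RXRA, the nuclear receptor that docosahexaenoic acid can bind, fell by 0.59 (adjusted p = 0.0317) and its call was lost without control replicates 4 or 5 or clinical drug replicates 2, 3 or 5 (log2 fold changes of -0.58 to -0.46). ENPP2, which makes lysophosphatidic acid from lysophosphatidylcholine and is abundant in choroid plexus, stood at 675 CPM in control replicate 5 and at 12.9 to 14 in the other controls, against 5.79 to 10.2 CPM after the clinical drug. Its log2 fold change was -4.26 with that library and -0.80 without it (edgeR, adjusted p = 0.0252 and 0.0964). With sequencing run in the fit ENPP2 was the 1 gene of these 6 still called. That fit compares drug and control only within the 2 full runs, each with 1 control, and 1 of these is control replicate 5. The ENPP2 call is thus not independent of that library. PNPLA6 (-0.56, edgeR adjusted p = 0.0571), AGPAT4 (-0.49, 0.0764) and ELOVL2 (0.52, 0.0829) then missed only the fold threshold, while CD36 (-0.66, 0.287) and RXRA (-0.49, 0.139) missed the adjusted p. Of 5 astrocyte genes 1 was called higher after the clinical drug, the water channel AQP4 at 0.93 (SE 0.23; edgeR, adjusted p = 0.0225), and 4 had a positive value. Their sum was 2140 to 3346 CPM in controls and 3011 to 4343 with the clinical drug, and its part in the lipid gene values was not tested. After Beta-Ac and between the drugs 0 of 57 were called by edgeR or DESeq2. Over all 17390 genes tested edgeR called 0% in both comparisons and DESeq2 138 and 180 genes. No difference of the lipid genes from other genes is read from this. SPNS1 stood at 44.8 ± 3.14 CPM in controls and 33.2 ± 5.11 after the clinical drug (SD, n = 5 each), a log2 fold change of -0.43 (SE 0.14; adjusted p = 0.0606) that was under the fold threshold.

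Both tissues were sequenced for 9 of the fetuses. The tables were scaled separately, so the levels are set side by side without a test. In the 3 controls hippocampus stood 13.8 to 23.4 times above lung, and in the 3 fetuses of the clinical drug 11.1 to 19.2 times. In the 3 fetuses of Beta-Ac it stood 3.16 to 6.95 times above lung. The fetus with the highest 5-day lung level (11.7 CPM) also had the highest hippocampus level (50.1 CPM), but the next one in lung (8.64 CPM) had a low hippocampus level (27.2 CPM).

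**Figure D5:**
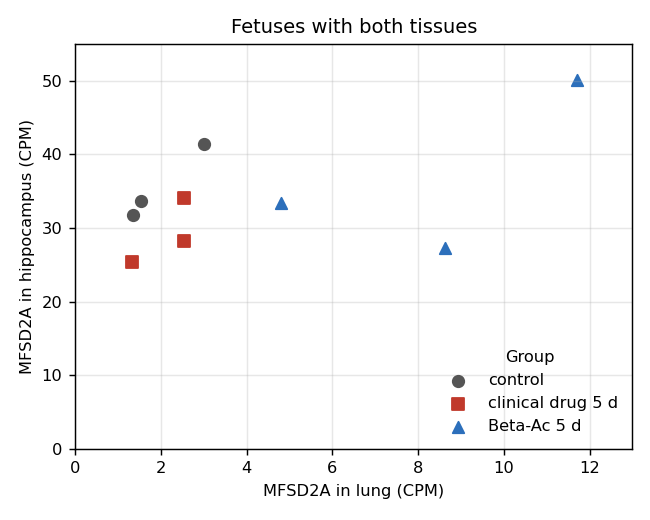
MFSD2A in lung (horizontal, CPM) and hippocampus (vertical, CPM) of the 9 fetuses with both tissues, by group: circles are controls, squares the clinical drug at 5 days and triangles Beta-Ac at 5 days. The 3 Beta-Ac fetuses lie to the right, at 4.80 to 11.7 CPM in lung, while hippocampus levels of all 9 range from 25.4 to 50.1 CPM.

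The genes whose pattern was most like that of MFSD2A were found by Pearson correlation of log2 CPM, as a description over libraries that share groups. Over the 15 lung libraries these were LPL (r = 0.94), which hydrolyses triglyceride of lipoproteins, ITPKC (0.93), an inositol trisphosphate kinase, ACSL4 (0.93), MAP3K5 (0.92), a stress kinase, and AKAP1 (0.92), a mitochondrial anchor of protein kinase A. LPL was at 51.9 ± 16.9 CPM in controls, 175 ± 74.1 at 4 h, 110 ± 8.22 at 6 h, 55.2 ± 19.4 at 5 days after the clinical drug and 81.8 ± 5.02 at 5 days after Beta-Ac (SD, n = 3 each). Its order of group means was thus that of MFSD2A, and ITPKC, ACSL4, MAP3K5 and AKAP1 had the same order. These genes were picked by their correlation with MFSD2A, so the shared order is not separate evidence. Over the 9 control and 5-day lung libraries the nearest genes were ITPKC (r = 0.92), AGPAT4 (0.91), the sugar transporter SLC50A1 (0.91), the glutathione transferase GSTA2 (0.89) and CD1E (0.89), a lipid-binding protein of antigen presentation. CD1E was near the limit of detection, with means of 0.0734 CPM in controls and 0.611 at 5 days after Beta-Ac and 1 control at 0. ITPKC is on both lists, at 25.6 ± 1.63 CPM at 5 days after Beta-Ac, 21.6 ± 1.68 after the clinical drug and 20.6 ± 0.543 in controls (SD, n = 3 each). Over the 15 hippocampus libraries the nearest were SHISA4 (r = 0.91), a membrane protein, TESC (0.90), a calcium-binding protein, PREX1 (0.90), a Rac exchange factor, REPS1 (0.89), an endocytosis protein, and SLC7A10 (0.88), an amino acid transporter. No gene was on both a lung and the hippocampus list.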

How the data were processed

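Whole-read counts per Ensembl gene were deposited by the authors, made from paired-end reads by aligning to MMUL1.0 and counting with featureCounts, before any filter or scaling. The submitters' processing notes name Bowtie 1.2.1.1 for lung and Bowtie2 for hippocampus. Hippocampus RNA was poly(A) selected. Symbols from Ensembl matched 52.1% of lung and 54.4% of hippocampus identifiers. No genome or protein sequence was used.

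A gene entered the fit of its tissue, over all groups, if 7 or more reads fell on it in 3 or more lung (5 or more hippocampus) libraries, in edgeR 4.0.16 under R 4.3.3, with TMM factors and the quasi-likelihood F-test, with p adjusted after Storey for lung and after Benjamini and Hochberg for hippocampus. The prior count was 0.125 for fold changes and 2 for log2 CPM. 95% intervals used the fit's degrees of freedom. Exact permutation tests were two-sided. The gene, its lists and the rule for named genes (the 5 of highest correlation, the up to 3 called list genes of largest change per direction, and fixed reference genes) were chosen with earlier results of these data known. KDR, RGS5, HOPX, RTKN2, EMCN and AQP4 were named outside the rule, after their values were seen. Within a tissue each library came from its own fetus. Depth was 14.1 to 45 M reads in lung and 18.3 to 29.3 M in hippocampus. Alternatives were RLE or no factors, other filters, the 2 groups alone, the other adjustment, DESeq2 1.42.0, each fetus left out and, in hippocampus, sequencing run and the groups of the treatment field. The code was tested on simulated counts.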

Additional observations from a re-analysis of the deposited data

Results flagged for a closer look

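The early and late drug differences of MFSD2A in lung pointed in opposite directions. At the early times every clinical drug library lay above every Beta-Ac library, and at 5 days every clinical drug library lay below every Beta-Ac library. The clinical drug minus Beta-Ac difference was larger early than at 5 days by 3.76 on the log2 scale. This difference was not tested, since the early values chose the gene.

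In hippocampus, 75 groups of 5 libraries were checked for a library far from the others by Dixon's criterion, which chance passes in about 1 group of 20, and 4 passed it. The MFSD2A values did not. Control replicate 5 held 898 CPM of choroid plexus genes (the other controls 1.49 to 2.14) and 675 CPM of ENPP2 (the other controls 12.9 to 14). Beta-Ac replicate 4 held 17.9 CPM of choroid plexus genes, against 2.88 to 4.51 in its group. Clinical drug replicate 1 had an SPNS2 level of 22.1 CPM, against 28.6 to 31 in its group.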

How the results depend on the processing

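Within a tissue no paired analysis of the groups was possible, because replicate numbers only name the fetuses. The 9 fetuses with both tissues pair lung with hippocampus, and these pairs were only described. DESeq2 moved 2 results past the threshold. For MFSD2A after Beta-Ac at 5 days in lung it gave 2.08 with adjusted p = 0.0217. The other settings with all fetuses gave adjusted p of 0.535 to 0.677, and single fetuses left out gave 0.487 to 1. For the clinical drug against Beta-Ac at 5 days DESeq2 gave -1.97 with adjusted p = 0.055. The other settings with all fetuses gave 0.57 or more, and 1 with any fetus left out. Why DESeq2 differed was not tested. Leaving out single fetuses, the small difference of the clinical drug from controls at 5 days in lung ran from -0.11 to 0.53 and took the other sign without control replicates 1 or 2 or clinical drug replicates 1 or 3. Under the treatment field, which exchanges the drugs, the hippocampus values became 0.15 (clinical drug), -0.29 (Beta-Ac) and 0.44 (between them). Relative to endothelial genes the clinical drug value ran from -0.54 to -0.25 and the Beta-Ac value from -0.001 to 0.29 over single fetuses left out. Of the lipid genes, single fetuses left out gave 0 to 2 calls after Beta-Ac at 6 h and 5 to 11 between the drugs early, and 4 with only those 2 groups fitted. In hippocampus 1 was called with run in the fit, 1 in the 2 full runs and 0 under the treatment field, and for Beta-Ac 1 and 6 in the last pair. Of the 5 lung genes most like MFSD2A, 3 were shared by Spearman correlation and 1 by the 9 control and 5-day libraries. The other tested MFSD2A values kept their direction and their side of the threshold, and the early lung values, which have no test, kept their direction. The lipid and cell marker genes that were followed singly kept theirs in 315 refits and lost the call in 71, of which 37 were in hippocampus. The calls of RGS5, HOPX, RTKN2 and AQP4 were not followed over the refits. Over all genes edgeR called 78 for Beta-Ac at 6 h and DESeq2 274, with 19 from only those 2 groups and 9 to 211 without single fetuses (12 without Beta-Ac replicate 3). Between the drugs early 1189 genes were called, 314 from only those 2 groups, 724 with no filter on low counts, and 1971 and 667 without clinical drug replicates 1 and 2. In hippocampus the clinical drug gave 1366 calls and 229 in the 2 full runs, Beta-Ac 184 without its replicate 1 and 18 in the 2 full runs against 0, and the drugs differed in 13 genes with run in the fit against 0. CLDN5 alone was not run as the endothelial reference. The lung control level of MFSD2A rests on 20 to 59 reads in 3 fetuses, which limits what can be seen.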
